A study of Monascus purpureus with 6 samples.

Results

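The genes described here are 68 genes of *M. purpureus* whose RNA level stood high in 1 of the 3 cultures of the YY-1 strain, culture c. They were chosen on CPM, the read count of a gene scaled to a common library total (counts per 1000000 counts). A gene was taken when it had at least 50 counts in culture c and a CPM there of at least 1.8 times the higher value of cultures a and b. Genes outside the scaffolds C1 to C8, the 15 outermost genes at each scaffold end and the 100 genes with the highest mean CPM in YY-1 were left out. The counts cover 7491 rows, of which 6240 were eligible, and the 68 members are 1.09% of those. Before the omissions 75 genes met the ratio, 5 of the 7 dropped genes lying at a scaffold end and 2 belonging to the most abundant genes.

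The study sequenced RNA from mycelia of winter and of YY-1, each as replicates a, b and c, on the eighth day of cultivation, in order to follow citrinin and pigment synthesis. Winter is 1 transformant of YY-1, made by random insertion of a cassette of the plasmid pHPH that confers resistance to hygromycin B and picked for its low citrinin production. YY-1 is the untransformed parental strain, a producer of food colorant from red yeast rice. The labels name no treatment and no other allele, and the replicates are described as independent biological triplicates, whose letters are names of libraries.

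*Monascus* pigments are azaphilone polyketides, built by a polyketide synthase and a fatty acid synthase whose products are joined by an acyltransferase and then tuned in color by oxidoreductases. The genes for these enzymes lie side by side, as is usual for secondary metabolite clusters in filamentous fungi. The genes of such a cluster are usually switched on together, at a late stage of growth.

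Library totals were 15194009 to 16004947 counts in winter and 9661178 to 10595943 counts in YY-1, where culture c had 10122887. Among the YY-1 cultures the TMM factor, edgeR's correction of library size for composition, was 0.951 in culture c, 1.05 in culture a and 1.10 in culture b. On library totals the median eligible gene was thus lower in culture c, with a log2 ratio of c over the mean of a and b of -0.22, and TMM brought it to -0.05. All CPM below are on library totals, as the choice of members was, and are not divided by gene length, so that they are compared between libraries and not between genes.

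Applied to each library in turn against the other 2 of its strain, the same rule took 68 genes in YY-1 culture c, 10 in culture a and 83 in culture b, and in winter 6 in replicate a, 66 in replicate b and 0 in replicate c. With TMM-scaled levels the numbers were 117 in YY-1 culture c, 8 in culture a and 43 in culture b, and in winter 8, 22 and 0 in replicates a, b and c. The 117 genes included all 68 members. A raised set of this size was therefore not particular to culture c by count on library totals, and culture c had the most under TMM. Genes lowered by the same limit, with at least 50 counts in each other library of the strain, set culture c apart. On library totals they numbered 127 in YY-1 culture c, 10 in culture a and 0 in culture b. In winter they numbered 33, 2 and 0 in replicates a, b and c. Lowered genes were not counted with TMM.

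The members' CPM in culture c spanned 5.04 to 1811, with a median of 152, where the medians were 53.1 in culture a and 52.9 in culture b. Their ratio of culture c over the higher of a and b had a median of 2.14, reached 2 in 46 members and 3 in 10, and its median over all eligible genes was 0.791. These values chose the members and are given as a description without a test. Cultures a and b, by contrast, lay near each other, with a median of 1.16 for the higher over the lower value in the members and 1.17 in the other eligible genes. Together the members made up 1.98%, 1.505% and 1.88% of the counts in winter a, b and c, against 2.15% in YY-1 culture c and 0.836% and 0.915% in cultures a and b. A few abundant genes weigh on these sums. C2.603, C2.964 and C5.598 held 3092, 2552 and 3110 of the members' 19751 CPM in winter a. In YY-1 culture c they held 1206, 630 and 568 of 21485 CPM, and in culture a 366, 166 and 225 of 8361 CPM.

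**Figure D1:**
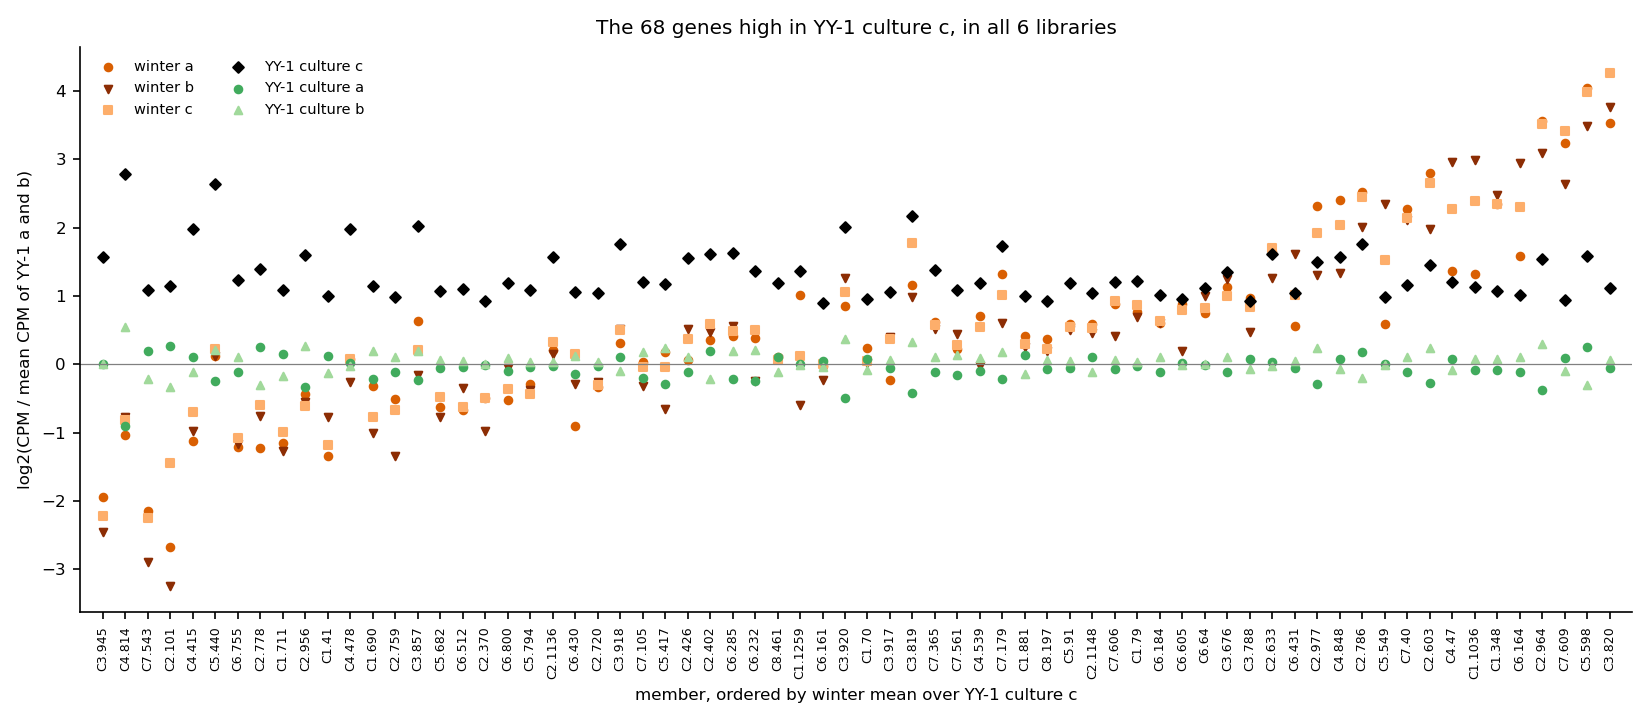
Level of each of the 68 members in the 6 libraries, as log2 of the CPM over the mean CPM of YY-1 cultures a and b (y axis), with members ordered from left to right by the mean winter CPM over culture c. Each point is 1 library; YY-1 culture c (black diamonds) was used to choose the members, and the winter points pass from below cultures a and b in 16 members to above culture c in 11.

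The largest ratio belonged to C5.440, which had 198, 198 and 212 CPM in winter a, b and c, 1140 CPM in YY-1 culture c, and 154 and 211 CPM in cultures a and b. Its ratio was 5.39, with a 95% counting interval of 5.15 to 5.64, and the winter libraries all lay far below culture c. C4.814 followed with a ratio of 4.71, from 3.12, 3.75 and 3.61 CPM in winter, 44.0 CPM in culture c, and 3.42 and 9.34 CPM in cultures a and b. In C4.478 the winter libraries held 132, 104 and 131 CPM, culture c 490 CPM, and cultures a and b 126 and 123 CPM. All 3 genes thus had winter levels at or around those of cultures a and b, with culture c alone above. C4.415, C3.819 and C3.857 had ratios of 3.65, 3.602 and 3.56, C3.918, C3.920, C2.633 and C2.786 had 3.16, 3.10, 3.01 and 3.01, and C3.945 and C7.179 had 2.97 and 2.94.

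Near the limit the members were less set apart. The 3 with the lowest ratios were C7.609 at 1.801, C6.161 at 1.802 and C3.788 at 1.802, and the closest genes left out were C2.187 at 1.798, C1.358 at 1.789 and C6.277 at 1.785. The counting interval of the ratio, which covers counting error only, lay wholly above 1.8 in 42 members and reached below it in 26. In 8 members it reached below 1.5. The lowest count in culture c was 51, in C6.232, whose ratio of 2.22 had an interval of 1.34 to 3.78.

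Among the members with the highest CPM in culture c the ratios lay between 1.802 and 5.39, with narrow counting intervals, such as 1.86 to 1.96 for the ratio of 1.91 of C5.417. C5.417 had 906, 510 and 780 CPM in winter a, b and c, 1811 CPM in YY-1 culture c, and 658 and 948 CPM in cultures a and b. C5.91 had 1101, 1037 and 1062 CPM in winter, 1668 CPM in culture c, and 704 and 755 CPM in cultures a and b. In C1.881 the winter libraries were at 972, 870 and 895 CPM, culture c at 1455 CPM, and a and b at 801 and 661 CPM. The winter levels of C5.91 and C1.881 all fell between those of culture c and those of a and b, while in C5.417 winter b was below both a and b. C2.759, C2.603, C3.788, C2.956, C7.105 and C6.755 were the others of the 10 highest besides C5.440, with 1362, 1206, 1126, 870, 690 and 692 CPM in culture c.

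The question asked of winter is where its libraries, which had no part in the choice, lay relative to the raised and to the other YY-1 cultures. The mean winter CPM was below culture c in 53 of 68 members, or 77.9%, against 47.0% of eligible genes, and the median log2 ratio of winter over culture c was -0.89, against 0.05. Relative to the mean of cultures a and b, winter was higher in 45 members, or 66.2% against 40.5% of eligible genes, with a median log2 ratio of 0.33 against -0.18. Since culture c was chosen high and a and b low, the choice itself favours a winter mean below culture c and above a and b. The eligible genes were not chosen in this way, so both ratios are descriptions. By library the members' median CPM was 91.3, 97.4 and 123 in winter a, b and c, against 152 in YY-1 culture c and 53.1 and 52.9 in cultures a and b.

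Winter took every position. In 11 members all 3 winter libraries exceeded culture c, a pattern held by 41.3% of eligible genes, and in 19 members all 3 lay between culture c and both of a and b, a pattern held by 0.865% of eligible genes that depends on the gap the choice opened. In 16 members all 3 winter libraries were below both a and b, against 38.7% of eligible genes. In the remaining 22 the winter libraries overlapped those of YY-1: 6 had some winter library above culture c, and 16 overlapped or crossed cultures a and b while staying below culture c.

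edgeR's quasi-likelihood test of winter against YY-1 with all 6 libraries called 14 members higher in winter at an adjusted p below 0.05, where 22.5% of the 7355 genes tested were called higher, and 15 members lower, where 25.5% were called lower. The other 39 members were not called. The median log2 fold change of the members was -0.19, against -0.03 over all genes tested. All 68 members passed the filter on low counts. This comparison holds the 3 YY-1 libraries that chose the members, so the shares are descriptions.

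With culture c left out, edgeR called 34 members higher, against 21.8% of the 7393 genes then tested, and 7 lower, against 25.6%, and the median log2 fold change of the members was 0.49, against -0.04. The 14 higher and 7 lower members of both comparisons were the same genes, 20 members were called higher only without culture c, and 8 were called lower only with it. In 19 members the sign of the fold change turned, and no member was called in opposite directions. Without winter b, 6 members were called lower in place of 15. Leaving out a culture chosen to be high lowers the YY-1 mean of each member by construction.

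Among the members that rose in winter, C3.820 had the largest change. It had 92.9, 109 and 156 CPM in winter a, b and c, against 17.6 CPM in YY-1 culture c and 7.76 and 8.40 CPM in cultures a and b, a log2 fold change of 3.47 with an SE of 0.35 (edgeR, n = 3 per strain, adjusted p = 4.02e-05). C5.598 had 3110, 2105 and 2973 CPM in winter, against 568 CPM in culture c and 225 and 152 CPM in a and b. It rose by a log2 fold change of 3.17 ± 0.49 (SE, edgeR adjusted p = 0.000549). The study's term table places C5.598 with FAD binding, terpenoid and carotenoid biosynthesis and fatty acid metabolism. It also lists the gene under 3-hydroxyacyl-CoA dehydrogenase activity, a step of fatty acid breakdown, and under the nuclear exosome, an RNase complex. These terms do not point to a single function.

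C2.964 carries terms of ubiquitin-protein transfer and of the anaphase-promoting complex, the ligase that marks cell cycle proteins for destruction. It had 2552, 1845 and 2464 CPM in winter, against 630 CPM in culture c and 166 and 266 CPM in a and b, with a log2 fold change of 2.75 (edgeR adjusted p = 0.00096). C7.609, listed under ion transmembrane transport, had 64.7, 43.0 and 73.4 CPM in winter, against 13.2 CPM in culture c and 7.35 and 6.42 CPM in a and b, a log2 fold change of 2.83 (edgeR adjusted p = 0.000102). C1.348, which shares the terms of FAD binding and carotenoid biosynthesis with C5.598, had 293, 321 and 293 CPM in winter, against 121 CPM in culture c and 54.3 and 60.8 CPM in a and b. The rise amounted to a log2 fold change of 1.999 (edgeR adjusted p = 0.000562). In all 5 genes the lowest winter library stood above culture c. That culture c stood above cultures a and b in them was set by the choice.

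C4.47, also listed under ion transmembrane transport, rose by a log2 fold change of 1.84 (edgeR adjusted p = 0.00513), with 116, 349 and 218 CPM in winter a, b and c, against 104 CPM in culture c and 47.5 and 42.7 CPM in cultures a and b. C6.164 rose by 2.01 (edgeR adjusted p = 0.00155). The readable part of the term table covers genes raised in winter, so the 5 annotated members had to be among the risers, and no share of members with a term is drawn from it. The other 63 members are known here by their numbers alone.

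The largest fall was that of C3.945, with 20.1, 14.2 and 16.7 CPM in winter a, b and c, against 231 CPM in YY-1 culture c and 77.6 and 77.7 CPM in cultures a and b, a log2 fold change of -2.87 with an SE of 0.45 (edgeR, n = 3 per strain, adjusted p = 0.000575). C7.543 had 43.0, 25.5 and 40.2 CPM in winter, against 406 CPM in culture c and 217 and 164 CPM in a and b, and changed by -2.78 (edgeR adjusted p = 0.000263). C6.755 had 127, 132 and 140 CPM in winter, against 692 CPM in culture c and 273 and 317 CPM in a and b, and changed by -1.63 (edgeR adjusted p = 0.00335). In these 3 genes the strains did not overlap, and the fall was called also without culture c, where the log2 fold changes were -2.03, -2.23 and -0.99 (edgeR adjusted p = 6.59e-05, 0.000171 and 0.000785).

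C2.101 was a gene of few reads, with 0.687, 0.461 and 1.61 CPM in winter, against 9.68 CPM in culture c and 5.28 and 3.49 CPM in a and b, and changed by -2.65 on the log2 scale (edgeR adjusted p = 0.00204). C4.814 changed by -2.41 and C4.415 by -1.86 (edgeR adjusted p = 0.0224 and 0.0149). Without culture c, C4.814 was at -0.72 and not called (edgeR adjusted p = 0.121), and C4.415 was at -0.77 and called (0.0184). Without winter b neither was called, at -2.41 and -1.78 (edgeR adjusted p = 0.0677 and 0.0533), so that the folds stayed about as large with fewer libraries. C2.759 and C2.956, whose log2 fold changes were -1.12 and -1.22 (edgeR adjusted p = 0.0242 and 0.0389), were not called without culture c, at -0.62 and -0.37 (0.0855 and 0.153). Without winter b they were at -0.88 and -1.16 (edgeR adjusted p = 0.0808 and 0.108), and C2.956 was at -1.20 without winter c (0.0879), so that there the fold of C2.956 stayed about as large and the call alone was lost.

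Among the rises, the calls of C2.786 and C5.549 were lost when certain libraries were left out. C2.786 had 282, 199 and 269 CPM in winter, against 167 CPM in culture c and 55.7 and 43.0 CPM in a and b, a log2 fold change of 1.55 (edgeR adjusted p = 0.0209), and was not called without culture a, at 1.29 (0.0817), or without culture b, at 1.19 (0.058). C5.549 had 115, 393 and 222 CPM in winter, against 153 CPM in culture c and 77.3 and 76.6 CPM in a and b, a log2 fold change of 1.28 (edgeR adjusted p = 0.0246), and was not called without culture a, at 1.12 (0.0924), without culture b, at 1.07 (0.0928), or without winter b, at 0.83 (0.11). In C2.786 no winter library overlapped a YY-1 library, while in C5.549 winter a lay below culture c.

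The winter libraries, which the rule did not use, differed among themselves more in the members than in other genes. The rule takes genes that differ between replicate cultures of YY-1, so it can favour genes that vary between cultures in winter too. This comparison is a description and was not tested. The highest over the lowest winter CPM had a median of 1.38 in the members and 1.27 in the 6172 other eligible genes, and reached 1.5 in 25 members, or 36.8% against 21.0%. The widest spreads were in C2.101 with 3.50, C5.549 with 3.40, C1.1036 with 3.16, C1.1259 with 3.04 and C4.47 with 3.01. Of these, C5.549, C1.1036 and C4.47 were highest in winter b, and C1.1259 and C2.101 were lowest there. The spread of C2.101 rests on few reads, with 11, 7 and 25 counts in winter a, b and c.

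Winter b was the lowest winter library in 40 members, or 58.8%, against 29.6% of the other eligible genes, and the highest in 19, or 27.9% against 57.0%. The median ratio of winter b over the mean of winter a and c was 0.929 in the members and 1.10 in the others. In 10 members, or 14.7% against 0.826%, winter b was at least 1.5 times below both a and c, and in 5, or 7.35% against 6.14%, at least 1.5 times above both. With TMM-scaled levels winter b was lowest in 48 members, or 70.6% against 44.3%, at least 1.5 times below in 15, or 22.1% against 2.64%, and at least 1.5 times above in 1, or 1.47% against 2.41%. Under both scalings the members were more often low in winter b than the other genes, while the share at least 1.5 times above changed sides with the scaling. What sets winter b apart was not tested.

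**Figure D2:**
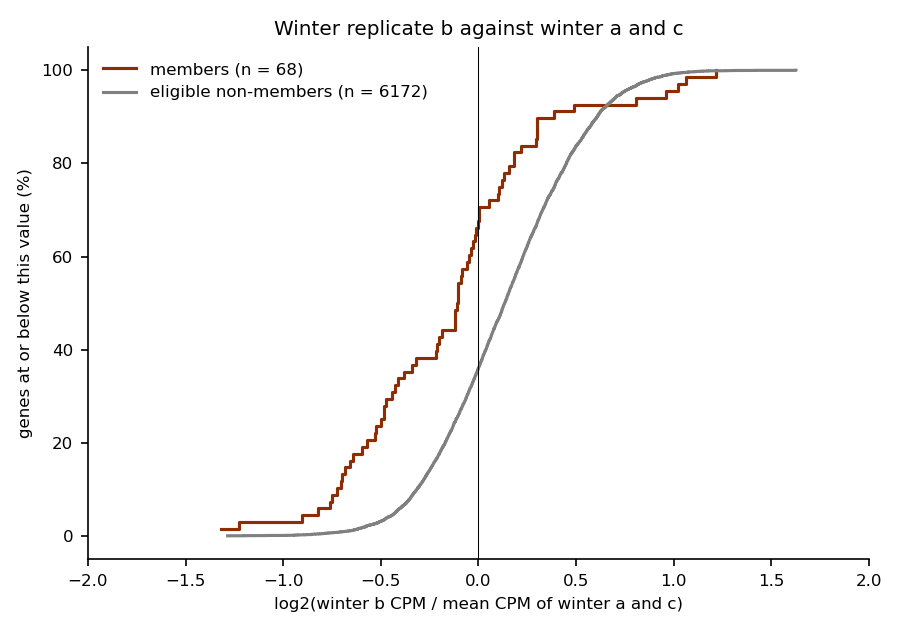
Cumulative share of genes (y axis, %) by log2 of the winter b CPM over the mean CPM of winter a and c (x axis), for the 68 members and the 6172 other eligible genes. The members' curve lies to the left over most of its length, with a median ratio of 0.929 against 1.10, and crosses the other curve at its right end.

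The members low in winter b included abundant genes. C2.603 had 3092, 1749 and 2785 CPM in winter a, b and c, against 1206 CPM in YY-1 culture c and 366 and 519 CPM in cultures a and b. C1.1259 had 391, 129 and 212 CPM in winter, against 501 CPM in culture c and 196 and 193 CPM in a and b. In C4.848 the winter libraries held 711, 339 and 556 CPM, culture c 399 CPM, and cultures a and b 141 and 128 CPM. C2.603 and C4.848 were called higher in winter (edgeR adjusted p = 0.00578 and 0.0382), the winter b library of C4.848 falling below culture c, and C1.1259 was not called, its winter b library lying below all YY-1 libraries. C2.759, C2.977, C5.417, C6.232, C6.605, C7.543 and C7.609 were the other members at least 1.5 times lower in winter b.

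In the 5 members at least 1.5 times higher in winter b, winter a was the lowest winter library and winter c lay between. C1.1036 had 58.5, 185 and 123 CPM in winter a, b and c, against 51.3 CPM in culture c and 22.2 and 24.6 CPM in cultures a and b. C6.164 had 8.68, 22.3 and 14.2 CPM in winter, against 5.83 CPM in culture c and 2.69 and 3.11 CPM in a and b. C6.431 had 4.561, 9.48 and 6.25 CPM in winter, against 6.42 CPM in culture c and 3.002 and 3.21 CPM in a and b. C4.47 and C5.549, given above, complete the group. Of the 5 genes all but C6.431 were called higher in winter (edgeR adjusted p of C6.431 = 0.107).

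Gene numbers, taken as the order along a scaffold, show whether the members lay in runs. The members were spread over all 8 scaffolds, from 2 of 474 eligible genes on C8, or 0.422%, to 12 of 707 on C6, or 1.70%. C2 held 15 members, C1 and C3 held 9 each, C7 held 8, C5 held 7 and C4 held 6. Of the 68 members 6 had another member as direct neighbour, 11 had one within 3 gene numbers, and 17 within 10. Members are 1.09% of eligible genes, so a scattered set would also have some members at these distances. Whether the counts exceed that was not tested. No 3 consecutive gene numbers were all members. The 111 eligible non-members directly beside a member had a median ratio of culture c over the higher of a and b of 0.849, against 0.788 over all eligible non-members, and 27.0% of them had a ratio above 1, against 17.8%. A ratio above 1.3 was found in 4 of the 111, or 3.604%, against 3.81%.

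**Figure D3:**
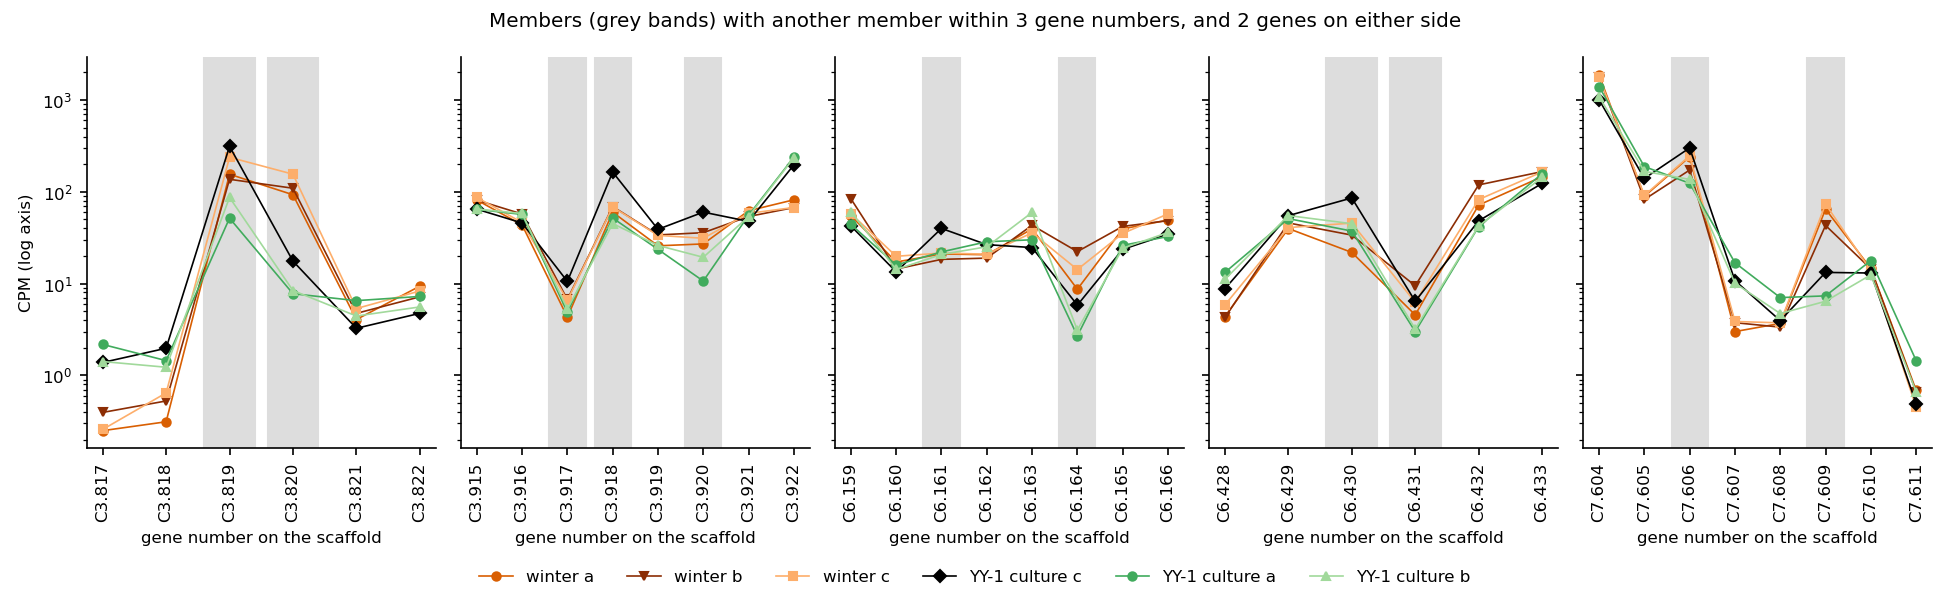
CPM (y axis, log scale) of the 11 members that have another member within 3 gene numbers (grey bands) and of the genes around them, in gene order along the scaffold (x axis) for 5 stretches, with a line per library. YY-1 culture c (black) stands above cultures a and b at the members and lies nearer to them or below them at the other genes. The winter libraries lie between culture c and the other cultures at some members, above culture c at others, and overlap YY-1 at the rest.

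The longest stretch was C3.917 to C3.920, in which 3 of 4 genes were members. C3.918 had 60.0, 69.0 and 68.4 CPM in winter a, b and c, 164 CPM in YY-1 culture c, and 51.9 and 45.02 CPM in cultures a and b. C3.920 had 27.1, 35.9 and 31.2 CPM in winter, 60.1 CPM in culture c, and 10.7 and 19.3 CPM in a and b. C3.917 had 4.31, 6.71 and 6.57 CPM in winter, 10.6 CPM in culture c, and 4.86 and 5.29 CPM in a and b. C3.919, between them, had a ratio of 1.498 and so fell short of the limit, while C3.916 and C3.921 had ratios of 0.787 and 0.858. In C3.918 and C3.920 all winter libraries lay between culture c and both other cultures, and none of the 3 members was called between the strains (edgeR adjusted p = 0.52 to 0.889). Without culture c, C3.918 and C3.920 were called higher in winter, with log2 fold changes of 0.59 and 1.21 (edgeR adjusted p = 0.0121 and 0.00266). Leaving out the culture chosen to be high favours such a rise, so these calls are descriptions.

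C3.819 and C3.820 were direct neighbours with different winter levels. C3.819 had 155, 137 and 238 CPM in winter, 313 CPM in culture c, and 51.6 and 86.8 CPM in cultures a and b, so that winter lay between culture c and the other cultures, whereas in C3.820 every winter library exceeded culture c. C3.818 and C3.821, on either side, had ratios of 1.36 and 0.50. C3.819 was called higher in winter without culture c, with a log2 fold change of 1.52, and not with it, at 0.27 (edgeR adjusted p = 0.00291 and 0.718). The choice of members favours a rise without culture c, so that call is a description.

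C6.430 and C6.431, another adjacent pair, differed likewise. C6.430 had 21.9, 33.8 and 45.6 CPM in winter, 85.7 CPM in culture c, and 37.4 and 44.9 CPM in cultures a and b, the winter libraries staying below culture c and overlapping the others. In C6.431 winter b exceeded culture c. C6.161 and C6.164 had the genes C6.162 and C6.163 between them, whose ratios were 0.93 and 0.414. C6.161 had 21.1, 18.4 and 21.5 CPM in winter, 39.9 CPM in culture c, and 22.2 and 20.8 CPM in a and b, and was not called, while C6.164 rose in winter. C7.606 had 241, 173 and 246 CPM in winter, 301 CPM in culture c, and 124 and 136 CPM in a and b, and was not called (edgeR adjusted p = 0.51), whereas C7.609, with C7.607 and C7.608 at ratios of 0.638 and 0.561 in between, rose.

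The pigment genes give the other side of culture c. The run C5.124 to C5.137 holds 14 genes, 7 of which the study names in its account of pigment synthesis. It has no member, and 7 of its genes were among the 100 most abundant ones that the choice left out. Culture c was below both a and b in 11 of the 14 genes, or 78.6%, and in all 7 named ones, against 58.3% of eligible genes. The median log2 ratio of culture c over the mean of a and b was -0.76 in the run and -0.87 in the 7 named genes, against -0.22 in eligible genes, and with TMM it was -0.58 in the run, against -0.05. One culture was set against 2, so no test was made.

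The polyketide synthase gene C5.137 had 4048, 3087 and 3719 CPM in winter a, b and c, 634 CPM in YY-1 culture c, and 1415 and 1187 CPM in cultures a and b. The fatty acid synthase genes C5.127 and C5.128 had 864 and 1451 CPM in culture c, where a and b had 1726 and 1606 CPM for C5.127 and 2726 and 2380 CPM for C5.128. The 3-O-acetyltransferase gene C5.134, whose product is thought to attach the acyl chain, had 1676 CPM in culture c, and 2997 and 2706 CPM in a and b. For these enzymes of the backbone culture c lay below both other YY-1 cultures, and all winter libraries lay above all YY-1 libraries. Of the oxidoreductase genes, C5.124 had 203 CPM in culture c, and 416 and 356 CPM in a and b, C5.133 had 932 CPM, and 1574 and 1474 CPM, and C5.135 had 706 CPM, and 1354 and 1225 CPM. C5.126 lay between the other cultures, and C5.129 and C5.130 were above both, with 3200 and 2038 CPM in culture c, and 3146 and 2975 CPM for C5.129 and 1370 and 1559 CPM for C5.130 in a and b.

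**Figure D4:**
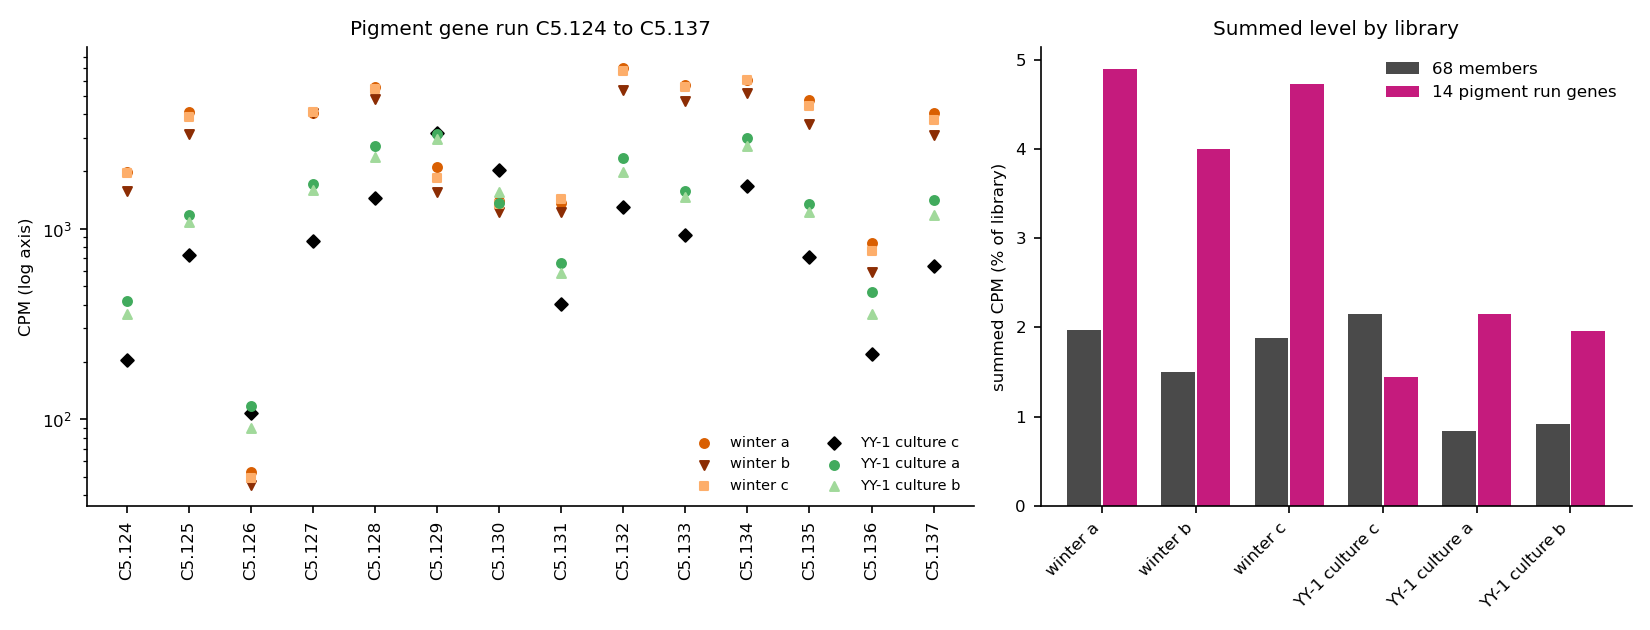
Left, CPM (log axis) of the 14 genes of the pigment run in the 6 libraries, 1 point per library. Right, the summed CPM of the 68 members and of the 14 pigment run genes as a percentage of each library, where YY-1 culture c has 2.15% for the members and 1.45% for the run, against 0.836% and 0.915% for the members and 2.15% and 1.96% for the run in cultures a and b.

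Summed over genes, the pigment run made up 4.90%, 4.002% and 4.72% of the counts in winter a, b and c, against 1.45% in YY-1 culture c and 2.15% and 1.96% in cultures a and b. Within YY-1, culture c had the highest sum of members and the lowest sum of pigment run genes. Within winter, replicate b had the lowest sum of both, 1.505% for the members and 4.002% for the run, against 1.98% and 4.90% in replicate a and 1.88% and 4.72% in replicate c. Winter libraries had more of both than cultures a and b. For the members this sum was weighted by the few abundant genes given above, and the mean winter CPM was below culture c in 53 of 68 members. With 3 cultures per strain, and with the members chosen on culture c, no relation between the sums was tested.

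Genes of the supply of precursors and of regulation that the study names did not all follow the pigment run in culture c. C5.304 and C5.305, genes of citrate lyase, which releases acetyl-CoA from citrate, had 625 and 409 CPM in culture c, where a and b had 1043 and 1064 CPM for C5.304 and 702 and 705 CPM for C5.305. The activator gene C6.126 had 23.1 CPM in culture c, and 34.5 and 47.5 CPM in a and b. These 3 lay below both other cultures. The NADPH-forming dehydrogenase genes C3.60 and C7.667 of the pentose phosphate pathway had 425 and 979 CPM in culture c, where a and b had 424 and 345 CPM for C3.60 and 853 and 703 CPM for C7.667. C4.56, the gene of citrate synthase, was at 1226 CPM in culture c, and 964 and 828 CPM in a and b, and the transcription factor gene C3.618 had 2004 CPM, and 1814 and 1848 CPM. These 4 lay above both other cultures, C3.60 only just above culture a. The transcription factor gene C5.141 had 712 CPM in culture c, and 1429 and 696 CPM in a and b, so that culture a stood apart there.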

How the data were processed

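Per the file header and the values, the deposited table holds raw read counts per gene for 7491 rows in the 6 libraries, which the authors did not normalize. The authors filtered the reads, aligned them by TopHat to transcripts predicted from the genome of YY-1, and took the reads of unique exons by HTSeq; the submitters' processing notes name TopHat2 2.0.8b and HTSeq 0.5.4p2, the study's methods other versions. Reads shared by near-identical genes are lost by such counting, and strand is not given in the sources used here, so overlapping genes can share reads. No genome, coordinates or gene lengths of this strain were used.

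CPM were computed on library totals (Python 3.11.15, pandas 2.3.3, numpy 2.4.6), and counting intervals of ratios at 95% by the exact conditional binomial (scipy 1.17.1). Figures were drawn with matplotlib 3.10.9. Winter was compared with YY-1 by edgeR 4.0.16 (R 4.3.3), with filterByExpr, TMM, glmQLFit and glmQLFTest, strain as the only term, n = 3 each, Benjamini-Hochberg adjustment over all 7355 genes tested and a threshold of 0.05. The SE of a log2 fold change was derived from the edgeR output, as its absolute value over the square root of the quasi-likelihood F statistic. The script was tested on simulated counts. P-values weigh the difference between the strains against the spread between these libraries. Winter is 1 transformant, so they do not cover a spread between transformants.

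Named are the 12 members with the largest ratio, the 10 with the highest CPM in culture c, those within 3 gene numbers of another, those with a term in the study's table, the 6 largest rises and falls, the 5 widest winter spreads, the 3 nearest the limit on each side, and genes of the study's text. No member is named there. C2.977, C4.848, C6.232 and C6.605 were named for winter b after their values were seen, as were the non-members beside the runs. The members and lists were chosen with earlier results of these data known. Alternatives were DESeq2 1.42.0 and its size factors, library totals alone, other filters, a replicate block, each library left out, a ratio of 1.5, TMM for the rule, and an adjusted p of 0.01. The rule applied to each library and the TMM scaling of winter b were added after seeing the data.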

Additional observations from a re-analysis of the deposited data

How the results depend on the processing

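The members called higher (14) and lower (15) in winter numbered 10 to 34 and 6 to 18 when a library was left out, the extremes coming without YY-1 culture a or b (10 higher, 18 lower each), without culture c (34 higher) and without winter b (6 lower). At an adjusted p below 0.01, 6 members were called lower, and 1073 of all genes higher in place of 1658. The rule gave 117 members on TMM-scaled CPM and 149 at a ratio of 1.5. The median log2 ratio of winter over cultures a and b was 0.49 with TMM and 0.36 to 0.44 with a winter library left out, that of the pigment run in culture c was -0.58 with TMM, and 6 and 17 members had another within 1 and 10 gene numbers. The rule applied to culture b, an alternative chosen after seeing the data, took 43 genes with TMM in place of 83. Of 38 named members, 19 were called, 13 of them under every alternative at the 0.05 threshold in which they passed the filter. With a library left out, log2 fold changes changed sign in C1.881 (-0.28 to 0.47), C1.1259 (-0.77 to 0.51), C3.819 (-0.13 to 1.52), C3.857 (-1.06 to 0.43), C3.917 (-0.38 to 0.35), C3.918 (-0.70 to 0.59), C3.920 (-0.30 to 1.21), C4.478 (-1.32 to 0.13), C5.91 (-0.13 to 0.71), C5.417 (-0.83 to 0.042), C5.440 (-1.71 to 0.31), C6.161 (-0.58 to 0.0786), C7.105 (-0.82 to 0.0597) and C7.179 (-0.0908 to 1.18). The cause was not tested. By the DESeq2 test, 10 members were called higher and 15 lower. Among the 38 named members, the calls of C2.786, C2.956 and C5.549 were lost there (DESeq2 adjusted p = 0.0532, 0.128 and 0.0672). The alternatives were not followed gene by gene for C2.977 and C4.848. The labels do not say whether the letters a, b and c pair the libraries. Deviations of same-lettered winter and YY-1 libraries correlated at 0.0962, 0.273 and 0.0999, and those of different letters at -0.286 to 0.172. Winter a and b correlated best with their own letter and winter c with YY-1 a (0.172). Whether the letters mark a pairing was not tested. With the letter as a replicate block, edgeR called 15 members higher and 16 lower, and 1848 and 1993 of all genes, with C2.633 and C6.430 then called and C1.881, not called, at 0.0892. Low counts, under 60 in culture c for C6.232 and C6.164, limit what the ratio shows.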
